A study of Homo sapiens with 9 samples.

Results

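The 10 genes described here encode parts of the actomyosin machinery: the smooth muscle actins ACTA2 and ACTG2, the myosin II chains MYH9 and MYL9, the tropomyosins TPM1, TPM2 and TPM4, the filament regulators CALD1 and CNN1, and the actin crosslinker TAGLN. They were taken by symbol from tables of 60683 genes, and all 10 were found. They were chosen by their measured levels in these same libraries and contrasts, so their fold changes are given as a description, with no p-value, and support nothing. After a filter on low counts 9 of them remained, and ACTG2 did not. Messenger RNA was sequenced from cells labelled HCT-15, an established human colorectal adenocarcinoma line, with the genotype given as WT and the medium as RPMI1640 in all groups. The first group, of 3 libraries, came from cells adapted to oxaliplatin, a platinum drug that binds DNA. They received 0.5 µM for 7 days and rising doses of 1, 2 and 4 µM between day 10 and day 30, and were then kept at 4 µM. The second group, also of 3 libraries, came from cells adapted to sorafenib, an inhibitor of RAF and of receptor tyrosine kinases, in a like manner and at doses not given in the sources used here. The last 3 libraries came from untreated cells.

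In contractile cells, myosin II filaments pull on actin filaments after the regulatory light chain of myosin has been phosphorylated, and tropomyosin, caldesmon and calponin lie along the actin filament and control access to it. Non-muscle cells run the same machinery with the cytoplasmic actins and non-muscle myosin II, mainly in stress fibres. The smooth muscle isoforms are added in smooth muscle, pericytes and myofibroblasts, where serum response factor and its myocardin-related cofactors switch the genes on through a DNA element named the CArG box, and where TGF-beta is a known inducer.

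Total counts per library ran from 15797076 to 20936536, and a library's level is given below as CPM, its count scaled to a common library size by TMM factors. The 3 libraries of a group differed by more than sampling noise (chi-square per degree of freedom 16.9 to 36.3 over the 9 pairs), but no source says that they were separate cultures, so errors and p-values measure library spread that may be technical only. Untreated 1 lay close to sorafenib 1. Across genes its log2 level correlated at 0.983, 0.976 and 0.978 with sorafenib 1, 2 and 3, against 0.979 and 0.981 with untreated 2 and 3. Of 12 colorectal epithelial markers 11 had a median under 1 CPM and 8, among them CDX2, CDH1 and KRT20, had no count in any library, while 6 of 10 renal epithelial markers, among them PAX8 and PAX2, had a median of at least 10 CPM. The values therefore go against the labelled tissue of origin, and the cells are called here by their treatment.

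Per length of exon the contractile genes fell into a high and a low set. MYH9, the heavy chain of non-muscle myosin IIA, had a median of 243 CPM per kb over the 9 libraries. Next came the tropomyosin genes TPM1, TPM2 and TPM4 with 60.7, 41.5 and 34.5 CPM per kb. TAGLN, CALD1, MYL9 and ACTA2 were far lower and close to each other, with medians of 1.93, 1.86, 1.81 and 1.55 CPM per kb. CNN1 had 0.122 CPM per kb, and ACTG2 had a median of 0. The order within the pair TPM2 and TPM4, and among the 4 genes near 2 CPM per kb, changed when the longest transcript was used as the length, so neighbours there are not told apart.

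The smooth muscle isoforms were a small part of their families. ACTA2 made up 0.289 ± 0.0901% of all actin mRNA in oxaliplatin libraries, 0.126 ± 0.0266% in sorafenib libraries and 0.0670 ± 0.0285% in untreated libraries (per kb of exon, mean ± SD, n = 3 each). The cytoplasmic actin genes ACTG1 and ACTB held nearly all of the rest, with medians of 932 and 540 CPM per kb. MYL9 was 1.13 ± 0.359% of the regulatory light chain mRNA in oxaliplatin libraries, 0.196 ± 0.0480% in sorafenib libraries and 0.478 ± 0.0556% in untreated libraries, beside its non-muscle relatives MYL12B and MYL12A. TAGLN was 1.08 ± 0.105% of transgelin mRNA in oxaliplatin libraries, 0.0576 ± 0.0170% in sorafenib libraries and 0.310 ± 0.150% in untreated libraries, and TAGLN2 held the rest to within 0.0121%. MYH9 was the other way round, with 92.0 to 93.9% of myosin II heavy chain mRNA in every library. MYH11, the smooth muscle heavy chain, reached at most 0.109 CPM.

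**Figure D1:**
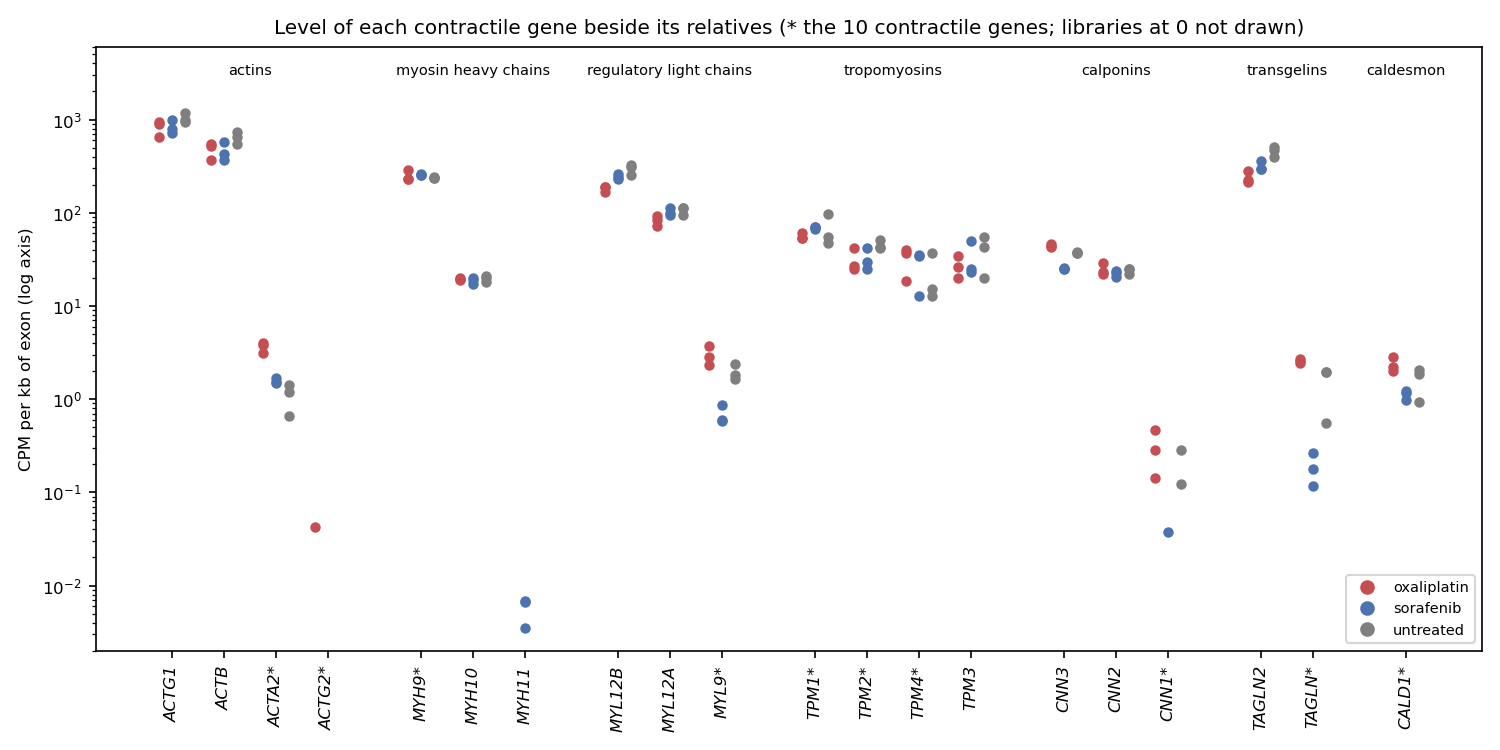
CPM per kb of exon (log axis) in each of the 9 libraries, with the 10 contractile genes marked by an asterisk beside other members of their families. ACTA2, MYL9, CNN1 and TAGLN lie far below ACTG1 and ACTB, MYL12B and MYL12A, CNN3 and CNN2, and TAGLN2, while MYH9 lies above MYH10. Libraries at 0 are not drawn.

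ACTA2, the gene of smooth muscle alpha actin (ENSG00000107796, GRCh38 chr10:88935074-88991339, minus strand), was highest in the oxaliplatin libraries. It had 247, 172 and 195 counts in oxaliplatin libraries 1 to 3, 92, 81 and 83 counts in sorafenib libraries and 60, 77 and 37 counts in untreated libraries. In CPM these are 11.3, 9.33 and 11.9 in oxaliplatin, 5.00, 4.60 and 4.45 in sorafenib and 3.52, 4.26 and 1.96 in untreated libraries. The groups did not overlap: all oxaliplatin libraries lay above all sorafenib libraries, and all of those above all untreated ones. The log2 fold change was 1.74 ± 0.26 (SE) for oxaliplatin against untreated, 0.53 ± 0.26 for sorafenib against untreated and 1.21 ± 0.25 for oxaliplatin against sorafenib. On the linear scale the first is a 3.34-fold higher level.

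**Figure D2:**
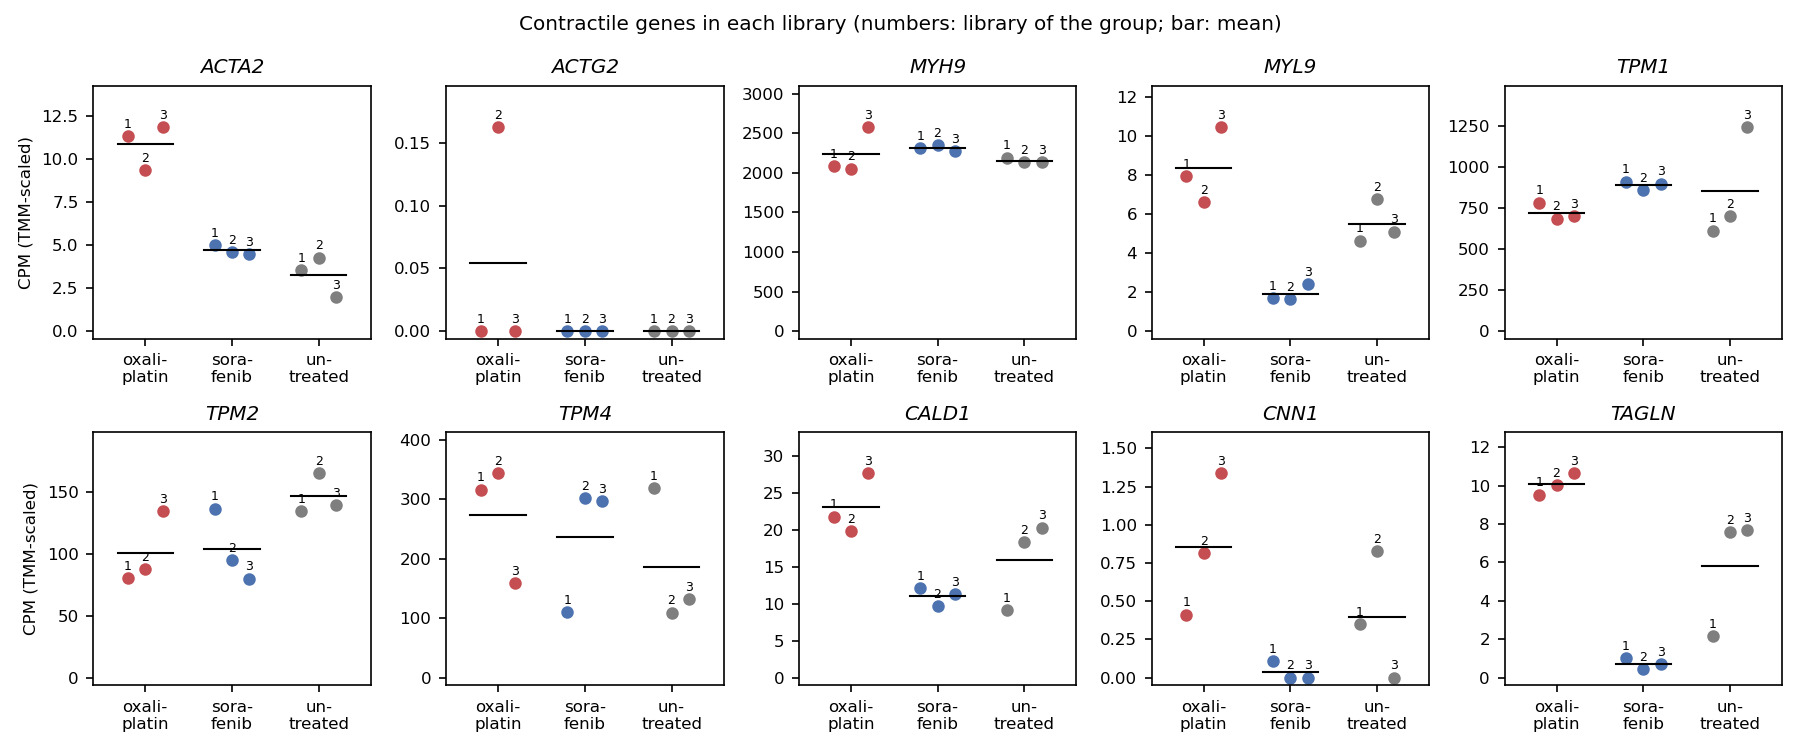
CPM (TMM-scaled) of the 10 contractile genes in the 3 oxaliplatin, 3 sorafenib and 3 untreated libraries, with a linear axis of its own for each gene. Digits number the libraries of a group and the bar is the group's mean. The oxaliplatin libraries of ACTA2 sit between 9.33 and 11.9 CPM, above the other 6 libraries, and the sorafenib libraries of TAGLN and MYL9 sit below all others.

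Part of the ACTA2 exons is shared with genes on the other strand, and the strand setting of the counting is not given in the sources used here. FAS, the gene of a death receptor, overlaps 380 bases or 12.8% of them. It had 24.8, 34.7 and 29.2 CPM in oxaliplatin libraries, 41.6, 41.4 and 21.9 CPM in sorafenib libraries and 17.4, 24.0 and 21.7 CPM in untreated libraries. FAS was called in neither comparison with untreated cells (edgeR, log2 fold change 0.49 ± 0.25 and adjusted p = 0.151 in oxaliplatin, 0.73 ± 0.25 and adjusted p = 0.104 in sorafenib). The antisense gene ACTA2-AS1 overlaps 516 bases and had 3, 2 and 3 counts in oxaliplatin libraries and none in the other 6. The coding parts of the muscle actin genes are much alike, and how reads with several alignments were counted is not given in the sources used here. What these sources contributed to the ACTA2 counts was not tested.

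RefSeq (GRCh38.p14) gives 2 start sites of ACTA2, and windows from 250 bases before to 50 after each are shown because ACTA2 had the largest log2 fold change of the 9 fitted genes in oxaliplatin against untreated. They were searched on both strands for the CArG box, exactly or with 1 of its 6 inner bases changed, and for CATTCC, the core of the MCAT element, with capitals marking the matches and no match overlapping another. The window at chr10:88952724-88953023 (minus strand) held 2 CArG boxes with 1 changed base, beginning at -121 and -71 from the start, and 1 CATTCC on the opposite strand at -183. The window at chr10:88991288-88991587 (minus strand) held neither. ACTG2, the enteric smooth muscle actin gene, is shown beside them because it held 2 exact CArG boxes, at -110 and -73, and was hardly detected.
ACTA2, window chr10:88952724-88953023: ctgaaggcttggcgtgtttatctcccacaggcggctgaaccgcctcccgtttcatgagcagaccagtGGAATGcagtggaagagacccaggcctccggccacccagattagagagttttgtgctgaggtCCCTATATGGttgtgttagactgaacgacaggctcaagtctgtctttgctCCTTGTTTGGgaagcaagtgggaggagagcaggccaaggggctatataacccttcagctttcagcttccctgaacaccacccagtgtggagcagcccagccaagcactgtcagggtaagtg
ACTA2, window chr10:88991288-88991587: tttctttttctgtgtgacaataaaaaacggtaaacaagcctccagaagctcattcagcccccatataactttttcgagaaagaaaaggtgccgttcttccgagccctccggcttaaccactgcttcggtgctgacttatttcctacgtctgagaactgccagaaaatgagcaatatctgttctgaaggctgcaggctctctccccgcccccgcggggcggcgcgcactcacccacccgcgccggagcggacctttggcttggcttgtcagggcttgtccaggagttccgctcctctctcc
ACTG2, window chr2:73892758-73893057, plus strand: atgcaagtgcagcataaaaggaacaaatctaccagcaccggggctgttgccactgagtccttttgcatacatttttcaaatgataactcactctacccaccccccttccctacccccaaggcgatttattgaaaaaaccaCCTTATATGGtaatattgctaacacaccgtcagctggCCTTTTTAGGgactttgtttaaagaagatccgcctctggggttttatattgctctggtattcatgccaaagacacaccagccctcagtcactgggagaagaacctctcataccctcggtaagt

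In all, 8 of the 10 contractile genes had windows in the RefSeq table, 15 windows together. An exact CArG box lay in 2 of the 15, those of ACTG2 and 1 of TPM4, against 1.29% of 35116 windows of all genes. With 1 change allowed it lay in 4 windows, also of ACTA2 and CALD1, against 8.13%, and CATTCC lay in 4, of ACTA2, CALD1 and MYH9, against 14.0%. The CNN1 window held neither. TAGLN and MYL9 are named only. A match describes these letters and is no evidence of binding, and the absence of one says nothing about the factor.

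ACTG2 itself (ENSG00000163017, chr2:73892314-73919865) had 3 counts in oxaliplatin 2 and none in the other 8 libraries. No fold is given. Up to 3 counts are possible behind a count of 0, which is 0.138 to 0.182 CPM at these depths, for counting error only.

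CNN1, the gene of the smooth muscle calponin (ENSG00000130176, chr19:11538767-11550323), which binds actin and slows the actomyosin ATPase, was near that limit too. It had 9, 15 and 22 counts in oxaliplatin libraries, 2, 0 and 0 in sorafenib libraries and 6, 15 and 0 in untreated libraries. All oxaliplatin libraries lay above all sorafenib libraries, and the untreated ones overlapped both. The ratio of the summed rates was 22.2 for oxaliplatin over sorafenib, with a 95% exact interval from 5.80 to 189, and 2.09 for oxaliplatin over untreated, from 1.22 to 3.68. These intervals cover counting error only and not the spread between libraries. In the fit, which includes that spread, the log2 fold change was 1.09 ± 0.87 for oxaliplatin against untreated. It was 4.29 ± 1.26 for oxaliplatin against sorafenib and -3.20 ± 1.39 for sorafenib against untreated, and CNN1 was called in none of these.

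TAGLN, the gene of transgelin, an actin-crosslinking protein and an early marker of smooth muscle (ENSG00000149591, chr11:117199370-117207464), was lowest in sorafenib. It had 9.53, 10.0 and 10.6 CPM in oxaliplatin libraries, 1.03, 0.454 and 0.697 CPM in sorafenib libraries and 2.17, 7.57 and 7.69 CPM in untreated libraries. The 3 groups did not overlap, but untreated 1 stood nearer to the sorafenib libraries than to untreated 2 and 3. The log2 fold change was -2.98 ± 0.48 for sorafenib against untreated, 0.79 ± 0.41 for oxaliplatin against untreated and 3.77 ± 0.49 for oxaliplatin against sorafenib. Without untreated 1 the first became -3.37 ± 0.27 and the second 0.40 ± 0.24. PCSK7, which overlaps 446 bases or 11.4% of the TAGLN exons on the other strand, had log2 fold changes of -0.05 in sorafenib and -0.07 in oxaliplatin, both against untreated.

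MYL9, a regulatory light chain of smooth muscle and non-muscle myosin II (ENSG00000101335, chr20:36541497-36551447), followed a similar order. It had 7.93, 6.62 and 10.5 CPM in oxaliplatin libraries, 1.68, 1.65 and 2.41 CPM in sorafenib libraries and 4.63, 6.74 and 5.09 CPM in untreated libraries. The sorafenib libraries lay below all others, and the oxaliplatin and untreated libraries overlapped. The log2 fold change was -1.52 ± 0.26 for sorafenib against untreated, 0.60 ± 0.24 for oxaliplatin against untreated and 2.12 ± 0.26 for oxaliplatin against sorafenib.

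CALD1, the gene of caldesmon, which binds actin, tropomyosin and myosin and restrains their interaction (ENSG00000122786, chr7:134744252-134970729), had 21.7, 19.8 and 27.6 CPM in oxaliplatin libraries. The sorafenib libraries had 12.1, 9.65 and 11.3 CPM and the untreated ones 9.09, 18.3 and 20.3 CPM. Oxaliplatin and sorafenib libraries did not overlap, whereas the untreated group spanned the sorafenib values and reached those of oxaliplatin 2. Its log2 fold change was 1.06 ± 0.27 for oxaliplatin against sorafenib, 0.53 ± 0.27 for oxaliplatin against untreated and -0.53 ± 0.27 for sorafenib against untreated. Without untreated 1, in which CALD1 was lowest, the last became -0.81 ± 0.18 and the second 0.25 ± 0.18.

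The 4 abundant members of the machinery were MYH9 and the tropomyosin genes. MYH9 (ENSG00000100345, chr22:36281280-36387967) had 2087, 2051 and 2579 CPM in oxaliplatin libraries, 2308, 2349 and 2272 CPM in sorafenib libraries and 2189, 2135 and 2133 CPM in untreated libraries. Its log2 fold changes were 0.06 ± 0.11 in oxaliplatin and 0.10 ± 0.11 in sorafenib, both against untreated, and the first turned to -0.31 after a correction for GC content and transcript length. The sorafenib libraries lay above the untreated ones by a small margin, and oxaliplatin spanned both.

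TPM1, a tropomyosin gene used by muscle and non-muscle cells (ENSG00000140416, chr15:63042632-63071915), had 781, 683 and 697 CPM in oxaliplatin libraries, 909, 858 and 896 CPM in sorafenib libraries and 611, 698 and 1242 CPM in untreated libraries. The untreated group was wider than the gap between the drugs, because untreated 3 was the highest and untreated 1 the lowest of all 9. TPM1-AS overlaps 16.1% of its exons on the other strand and had at most 4.62 CPM. TPM2 (ENSG00000198467, chr9:35681992-35690056), which encodes beta tropomyosin, had 80.3, 87.7 and 135 CPM in oxaliplatin libraries, 137, 95.1 and 80.2 CPM in sorafenib libraries and 135, 165 and 140 CPM in untreated libraries. Its log2 fold changes were -0.54 ± 0.24 in oxaliplatin and -0.50 ± 0.24 in sorafenib, both against untreated, with oxaliplatin 3 and sorafenib 1 reaching the untreated range. Without oxaliplatin 3 the first became -0.80 ± 0.22.

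TPM4, a non-muscle tropomyosin gene (ENSG00000167460, chr19:16067021-16103002), split every group. It had 317, 344 and 159 CPM in oxaliplatin libraries, 110.5, 303 and 298 CPM in sorafenib libraries and 319, 109 and 132 CPM in untreated libraries. In each group 1 or 2 libraries lay at 298 CPM or more and the others at 159 CPM or less, so its log2 fold changes, 0.55 ± 0.54 in oxaliplatin and 0.34 ± 0.54 in sorafenib against untreated, are about as large as their errors or smaller. Without untreated 1 they were 1.18 ± 0.50 and 0.97 ± 0.50. TPM3, another tropomyosin gene, which was looked at after the TPM4 values had been seen, went the opposite way. It had 166.5, 219.9 and 288 CPM in oxaliplatin libraries, 413, 209 and 194 CPM in sorafenib libraries and 169, 465 and 362 CPM in untreated libraries. The 5 libraries with 298 to 344 CPM of TPM4 had 166.5 to 219.9 CPM of TPM3, and the 4 with 109 to 159 CPM of TPM4 had 288 to 465 CPM of TPM3. The sum of both genes ran from 447 to 574 CPM, a 1.28-fold range, against 3.15-fold for TPM4 and 2.79-fold for TPM3 alone.

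**Figure D3:**
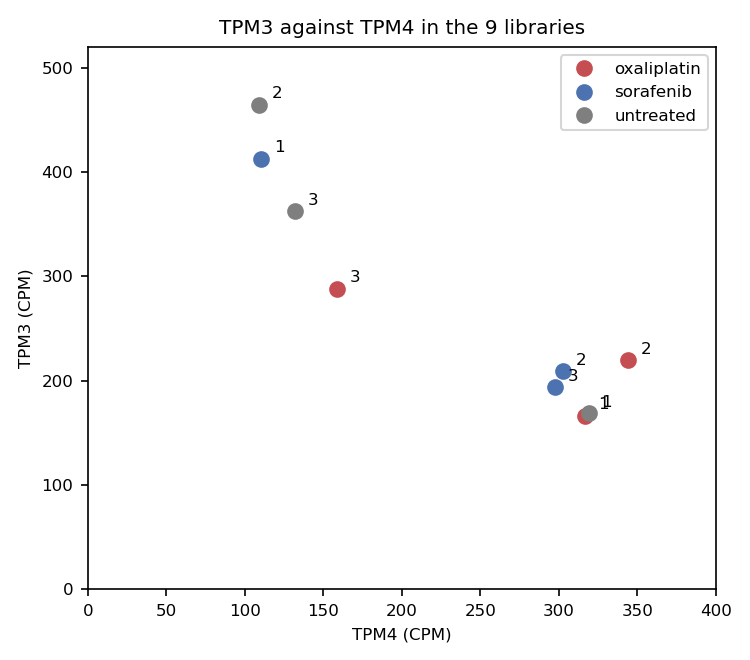
TPM3 (vertical axis, CPM) against TPM4 (horizontal axis, CPM) in the 9 libraries, coloured by group, with digits for the library within the group. Libraries of every group occur at both ends: 5 libraries have 298 to 344 CPM of TPM4 and at most 219.9 CPM of TPM3, and 4 have at most 159 CPM of TPM4 and at least 288 CPM of TPM3.

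A gene was called where edgeR's quasi-likelihood test gave an adjusted p under 0.05 over all 16159 genes tested. In oxaliplatin against untreated this held for 1 of the 9 fitted contractile genes, ACTA2, beside 31.7% of all genes, 16.2% higher and 15.5% lower. Groups that did not overlap were found for 2 of the 9, ACTA2 and TAGLN, beside 48.1%. In sorafenib against untreated 2 of the 9 were called, TAGLN and MYL9, both lower, beside 4.80% of all genes, 2.82% higher and 1.97% lower. There 4 of the 9 had groups that did not overlap, ACTA2 and MYH9 higher and TAGLN and MYL9 lower, beside 29.8%. In oxaliplatin against sorafenib 4 of the 9 were called, ACTA2, TAGLN, MYL9 and CALD1, all higher, beside 10.3% of all genes, 5.20% higher and 5.07% lower. Groups stood apart for 6 of the 9, TPM1 lower and ACTA2, TAGLN, CNN1, MYL9 and CALD1 higher, beside 34.9%. The genes were chosen with these contrasts known, so nothing is read from the counts. The comparisons share libraries in pairs.

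**Figure D4:**
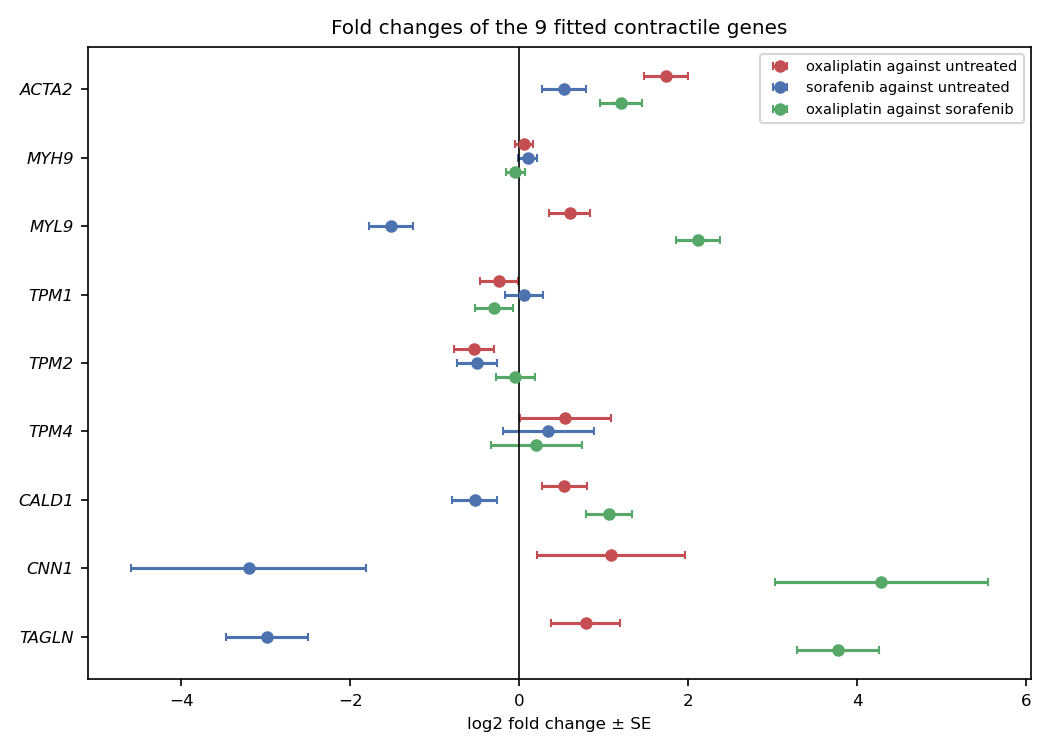
Log2 fold change ± SE (horizontal axis) of the 9 fitted contractile genes in the 3 contrasts. The largest values are those of TAGLN and CNN1 in the contrasts with sorafenib, and the CNN1 values rest on 0 to 22 counts per library. MYH9 lies within 0.10 of 0 in all 3 contrasts.

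Some of these calls ended under other settings. Calls that did not end are no support, since these contrasts chose the genes. For ACTA2 in oxaliplatin against untreated the log2 fold change ran from 1.47 to 1.98 over 17 alternatives. The TAGLN call in sorafenib against untreated ended without untreated 2 (-2.75), untreated 3 (-2.73), sorafenib 2 (-2.74) or sorafenib 3 (-2.95), and also with the replicate number as a block (-2.89). The MYL9 call there ended without untreated 2 (-1.34) or sorafenib 2 (-1.42). Between the drugs the log2 fold changes of TAGLN and MYL9 ran from 3.53 to 4.10 and from 1.93 to 2.31. The ACTA2 call between the drugs ended without oxaliplatin 1 (1.18) or without sorafenib 1, 2 or 3 (1.26, 1.19 and 1.17), and that of CALD1 without any 1 oxaliplatin or sorafenib library (0.92 to 1.16), with the replicate block (1.04) and with the correction for GC content and length (0.95).

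By a fixed rule, the genes most like ACTA2, TAGLN and MYL9 over the 9 libraries were looked up among 10134 genes that averaged 5 CPM or more, by Pearson's r of log2(CPM + 1). For ACTA2 they were ERCC6 (0.977), a DNA repair gene, MYC (0.971), a growth-promoting transcription factor gene, LAMB2 (0.969), which encodes a laminin chain, PATJ (0.967) and STRN3 (0.963). For TAGLN they were SIAH2 (0.997), a ubiquitin ligase gene, DCLK1 (0.988), FGB (0.982), which encodes the fibrinogen beta chain, PODXL (0.976) and HPGD (0.971), a prostaglandin-degrading enzyme gene. For MYL9 they were FGB (0.982), APOL2 (0.965), CNN3 (0.960), COL7A1 (0.960) and ZFP36L1 (0.956). FGB had 128, 121 and 178 CPM in oxaliplatin libraries, 31.5, 26.7 and 30.7 CPM in sorafenib libraries and 64.1, 119 and 102 CPM in untreated libraries. The 9 points share their 3 groups, so any gene that separates the groups in this order scores high. No other gene of the contractile lists, apart from CNN3 beside MYL9, was among these.

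The rest of the machinery was described from 7 lists of 120 genes in all, of which 106 passed the filter and 45 of these share no exon base with another gene. In oxaliplatin against untreated 16 rose and 17 fell, 31.1% beside 31.7% of all genes, with a median log2 fold change of -0.03 beside 0.02 over all genes. That split was 25 higher and 12 lower with library size only, and 8 higher and 30 lower after the correction for GC content and length. In sorafenib against untreated 4 rose and 4 fell, 7.55% beside 4.80%, with a median of -0.17 beside 0.00. Between oxaliplatin and sorafenib 7 were higher and 6 lower in oxaliplatin, 12.3% beside 10.3%, with a median of 0.08 beside -0.01. The lists thus had calls in both directions in each contrast, as the plot of the wider lists shows.

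**Figure D5:**
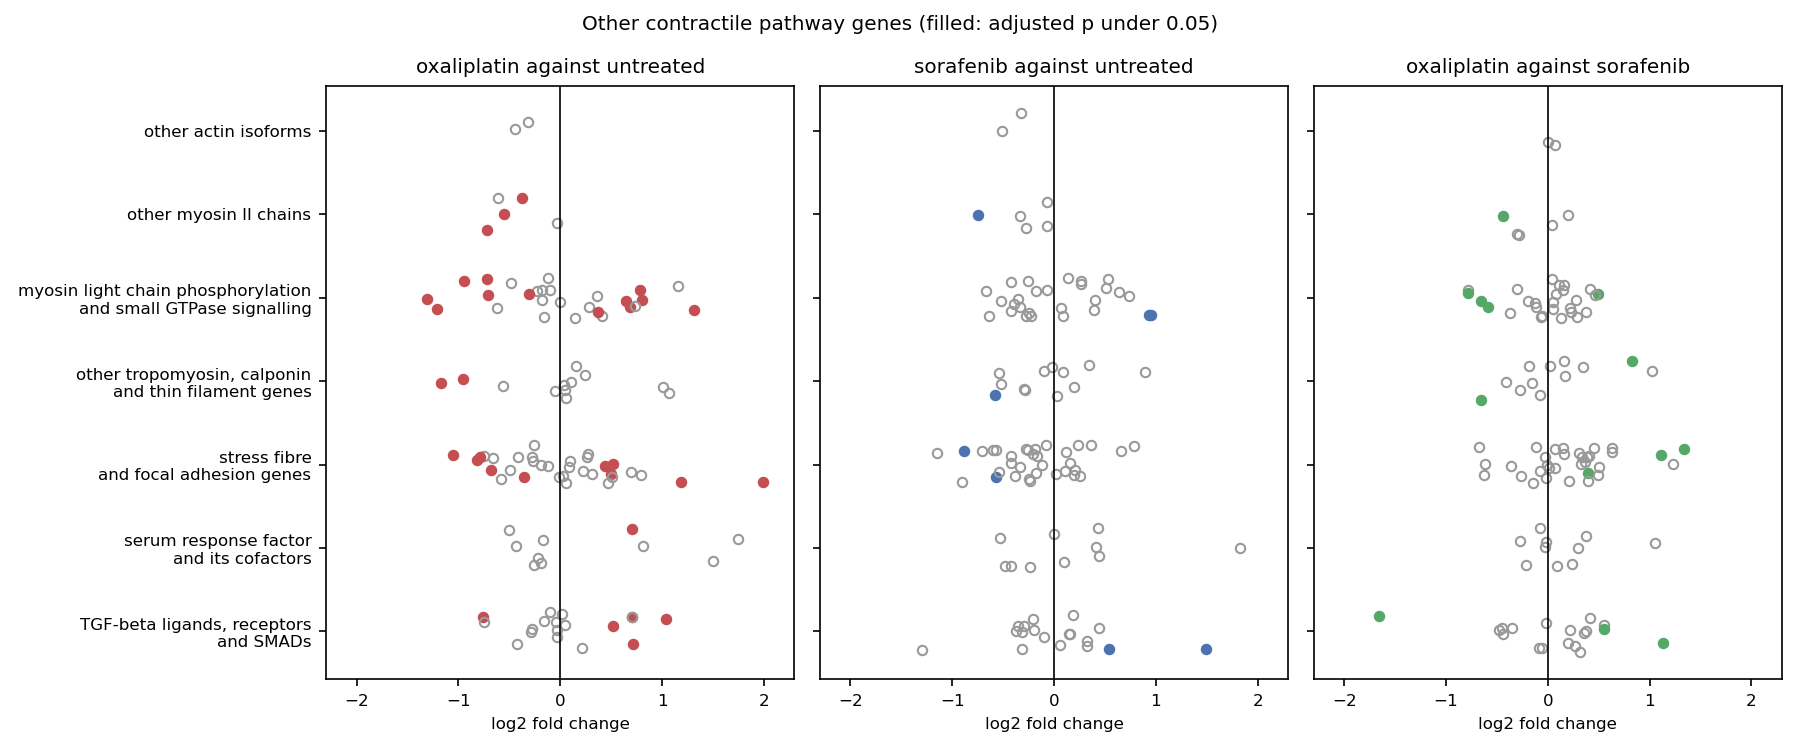
Log2 fold change (horizontal axis) of 106 other genes of the contractile machinery in 7 lists, 1 panel per contrast. Each point is a gene, and filled points have an adjusted p under 0.05 by edgeR. Filled points lie on both sides of 0 in every panel, 16 higher and 17 lower in oxaliplatin against untreated.

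Among the motor and its relatives, 3 of 5 other myosin II chains fell in oxaliplatin against untreated and 0 rose, 60.0% called beside 31.7% of all genes. MYL12B, a non-muscle regulatory light chain gene, had 363, 362 and 323 CPM in oxaliplatin libraries and 494.5, 635 and 592 CPM in untreated libraries, without overlap. The log2 fold change was -0.72 ± 0.12 (edgeR, adjusted p = 0.00321), and it was called in 17 of 17 alternatives (adjusted p up to 0.0156). The essential light chain gene MYL6 had -0.56 ± 0.17 (edgeR, adjusted p = 0.0308) and the regulatory light chain gene MYL12A -0.38 ± 0.13 (adjusted p = 0.0474). Both calls ended without untreated 2, untreated 3 or oxaliplatin 1, that of MYL6 also without oxaliplatin 2, and that of MYL12A also without oxaliplatin 3, sorafenib 2 or sorafenib 3. Both also ended with library size only and with the replicate block, and that of MYL6 with the correction for GC content and length. That of MYL12A also ended with no filter, with the filter on mean CPM and with fits of 2 groups. MYL6 was thus called in 10 of 17 alternatives and MYL12A in 6 of 17. Over the alternatives their adjusted p ran up to 0.112 and 0.138, and their log2 fold changes from -0.67 to -0.40 and from -0.46 to -0.26. In sorafenib against untreated 1 of the 5 fell and 0 rose, 20.0% beside 4.80%. This was MYL6, at -0.75 ± 0.17 (edgeR, adjusted p = 0.038, up to 0.154 over the alternatives). Its call ended without any 1 of untreated 2 and 3, oxaliplatin 1 and 2 and sorafenib 2 and 3 (-0.75 to -0.65). It also ended with fits of 2 groups and with the replicate block (-0.75 in each). Neither cytoplasmic actin gene was called. ACTB had -0.45 ± 0.20 (edgeR, adjusted p = 0.116) in oxaliplatin and -0.51 ± 0.20 (adjusted p = 0.151) in sorafenib, and ACTG1 had -0.32 ± 0.17 in both (adjusted p = 0.177 and 0.263).

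In the list of light chain phosphorylation and small GTPase signalling, 6 of 27 rose and 6 fell in oxaliplatin against untreated, 44.4% called beside 31.7% of all genes. MYLK, the kinase that phosphorylates the regulatory light chain, had 165, 164 and 158 CPM in oxaliplatin libraries, 107.5, 129.7 and 137 CPM in sorafenib libraries and 79.0, 58.0 and 59.0 CPM in untreated libraries. The 3 groups did not overlap. Its log2 fold change was 1.31 ± 0.14 in oxaliplatin (edgeR, adjusted p = 0.00104, called in 17 of 17 alternatives) and 0.93 ± 0.14 in sorafenib (adjusted p = 0.00999), where the call ended without untreated 3 or sorafenib 3 (0.86 in each, adjusted p up to 0.0522 over the alternatives). RND3, which encodes a small GTPase that opposes the kinase ROCK, had 50.7, 57.7 and 48.6 CPM in oxaliplatin libraries, 86.9, 80.4 and 104 CPM in sorafenib libraries and 111, 135 and 118 CPM in untreated libraries. It fell in oxaliplatin by 1.21 ± 0.13 against untreated (edgeR, adjusted p = 0.00103) and by 0.79 ± 0.13 against sorafenib (adjusted p = 0.00644) on the log2 scale, in 18 of 18 alternatives each.

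The formin gene DIAPH3, whose product elongates actin filaments, had log2 fold changes of -0.72 ± 0.12 in oxaliplatin against untreated (edgeR, adjusted p = 0.00315) and -0.65 ± 0.12 against sorafenib (adjusted p = 0.00969). Of the 27, 2 rose and 0 fell in sorafenib against untreated, 7.41% beside 4.80%. These were MYLK and ARHGEF2, the gene of a microtubule-bound activator of RHOA. ARHGEF2 had 120.3, 125 and 138 CPM in oxaliplatin libraries, 197, 193 and 183 CPM in sorafenib libraries and 108, 87.5 and 100.3 CPM in untreated libraries. Its log2 fold change in sorafenib was 0.95 ± 0.11 (edgeR, adjusted p = 0.00228, called in 17 of 17 alternatives).

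Of 12 tested thin filament genes, 2 fell and 0 rose in oxaliplatin against untreated, 16.7% called beside 31.7% of all genes. PFN1, the gene of the actin monomer-binding protein profilin, had 655, 637 and 801 CPM in oxaliplatin libraries and 1366, 1767 and 1584 CPM in untreated libraries, a log2 fold change of -1.17 ± 0.15 (edgeR, adjusted p = 0.00161). TAGLN2, the non-muscle transgelin gene, had 555, 535 and 691 CPM in oxaliplatin libraries and 994, 1273 and 1174 CPM in untreated libraries, a log2 fold change of -0.95 ± 0.14 (adjusted p = 0.00254). Neither pair of groups overlapped, and both genes were called in all alternatives. CNN3, a calponin gene of non-muscle cells, had 131, 121 and 124 CPM in oxaliplatin libraries, 70.0, 70.2 and 71.7 CPM in sorafenib libraries and 106, 105 and 106 CPM in untreated libraries. It fell in sorafenib by 0.58 ± 0.09 on the log2 scale against untreated (edgeR, adjusted p = 0.00877), a call that ended without sorafenib 2 (-0.58) or sorafenib 3 (-0.59) and with the replicate block (-0.58, adjusted p up to 0.0521 over the alternatives). It was higher in oxaliplatin than in sorafenib by 0.82 ± 0.09 (adjusted p = 0.000627, called in 18 of 18).

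Of 33 stress fibre and focal adhesion genes, 5 rose and 5 fell in oxaliplatin against untreated, 30.3% called beside 31.7% of all genes. Of the same 33, 0 rose and 2 fell in sorafenib against untreated, 6.06% beside 4.80%. TLN2, the gene of talin 2, which couples integrins to actin, had 31.0, 39.1 and 39.7 CPM in oxaliplatin libraries, 11.5, 17.4 and 14.6 CPM in sorafenib libraries and 11.0, 7.02 and 9.50 CPM in untreated libraries. The groups did not overlap, and the log2 fold change was 1.99 ± 0.21 in oxaliplatin against untreated (edgeR, adjusted p = 0.000954) and 1.34 ± 0.21 against sorafenib (adjusted p = 0.00466). PDLIM1, which encodes an adaptor that binds alpha-actinin, had -0.68 ± 0.15 in oxaliplatin against untreated (edgeR, adjusted p = 0.00811). SYNPO, the gene of synaptopodin, an actin-bundling protein, had 60.7, 57.2 and 87.0 CPM in oxaliplatin libraries, 34.9, 33.0 and 26.8 CPM in sorafenib libraries and 47.8, 66.7 and 60.7 CPM in untreated libraries. It was higher in oxaliplatin than in sorafenib by 1.11 ± 0.19 (edgeR, adjusted p = 0.00783, called in 18 of 18). Against untreated it had -0.89 ± 0.19 in sorafenib (edgeR, adjusted p = 0.0343). That call ended without untreated 2 or 3, oxaliplatin 1, or sorafenib 2 or 3, and with the replicate block. Over the alternatives the log2 fold change lay between -1.07 and -0.78 and the adjusted p ran up to 0.134.

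Serum response factor and its myocardin-related cofactors, known to drive the smooth muscle genes, were listed with other regulators, among them a repressor, SCAI. Of the 10 tested genes of that list, 1 rose and 0 fell in oxaliplatin against untreated, 10.0% called beside 31.7% of all genes. By edgeR 0 were called in sorafenib against untreated, beside 4.80%, or between the drugs, beside 10.3%, with 1 gene each at an unadjusted p under 0.05. SRF itself had 54.2, 52.4 and 87.1 CPM in oxaliplatin libraries, 59.6, 54.0 and 50.2 CPM in sorafenib libraries and 65.0, 80.9 and 74.0 CPM in untreated libraries, with overlap of oxaliplatin and untreated values. Its log2 fold change was -0.18 ± 0.19 in oxaliplatin (edgeR, adjusted p = 0.487) and -0.43 ± 0.19 in sorafenib (adjusted p = 0.198), and without oxaliplatin 3 the first was called at -0.45 (adjusted p = 0.0313). The cofactor gene MRTFA had -0.44 ± 0.17 in oxaliplatin (edgeR, adjusted p = 0.0800). It was called there without oxaliplatin 3 (-0.62) and with the correction for GC content and length (-0.52), and by DESeq2 in sorafenib against untreated (-0.54, adjusted p = 0.0499). MRTFB had 63.2, 60.0 and 52.5 CPM in oxaliplatin libraries, 28.2, 17.4 and 39.3 CPM in sorafenib libraries and 5.87, 26.7 and 29.7 CPM in untreated libraries. The MRTFB log2 fold change in oxaliplatin was 1.50 ± 0.54 (edgeR, adjusted p = 0.0669), and it was called by DESeq2 (1.48), with library size only (1.63) and without untreated 1 (1.06). Without untreated 1 it was also called between the drugs (1.05). MYOCD, the gene of myocardin, the cofactor of differentiated smooth muscle, had no count in any library. The one gene called, SCAI, encodes a repressor of the myocardin-related cofactors. It had 0.71 ± 0.19 (edgeR, adjusted p = 0.0179), a call that ended without untreated 2 or 3 or oxaliplatin 1 or 2. Its log2 fold change was 0.03 after correcting for GC content and length and at most 0.88 over the alternatives (adjusted p up to 0.901).

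Of 18 genes of TGF-beta ligands, receptors and SMADs, 4 rose and 1 fell in oxaliplatin against untreated, 27.8% called beside 31.7% of all genes. INHBA, which encodes an activin subunit, had 46.8, 51.4 and 44.8 CPM in oxaliplatin libraries, 19.2, 25.4 and 20.6 CPM in sorafenib libraries and 21.9, 22.0 and 25.8 CPM in untreated libraries. The oxaliplatin libraries lay above all others, and the log2 fold change was 1.04 ± 0.14 against untreated (edgeR, adjusted p = 0.00166) and 1.13 ± 0.14 against sorafenib (adjusted p = 0.00133). The receptor gene TGFBR2 had 0.70 ± 0.13 in oxaliplatin against untreated (edgeR, adjusted p = 0.00465) and SKI, the gene of a repressor of SMAD proteins, 0.72 ± 0.13 (adjusted p = 0.00497). The gene that fell was the ligand TGFB1, at -0.76 ± 0.17 (adjusted p = 0.00869). Of the 18, 2 rose and 0 fell in sorafenib against untreated, 11.1% beside 4.80%. TGFBR3, the co-receptor betaglycan, had 1.33, 1.52 and 0.608 CPM in oxaliplatin libraries, 3.15, 3.80 and 4.07 CPM in sorafenib libraries and 1.47, 1.16 and 1.27 CPM in untreated libraries. Its log2 fold change was 1.50 ± 0.31 in sorafenib against untreated (edgeR, adjusted p = 0.0306, up to 0.119 over the alternatives). That call ended without untreated 2 or 3, oxaliplatin 1, or sorafenib 2 or 3, and with the replicate block (1.42 to 1.50). The other was SMAD3, at 0.54 ± 0.12 (edgeR, adjusted p = 0.0397, up to 0.157 over the alternatives). Its call ended without untreated 2 or 3, oxaliplatin 1 or 2, or sorafenib 2 or 3 (0.47 to 0.54). It also ended with fits of 2 groups and with the replicate block (0.54 in each). SMAD3 was also called higher in oxaliplatin against untreated (0.52 ± 0.12, edgeR, adjusted p = 0.0119). That call ended without untreated 2 (0.44) or untreated 3 (0.47) and with the correction for GC content and length (0.20). Between the drugs SMAD3 was at -0.02 ± 0.12.

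Most markers of cells that normally express the smooth muscle isoforms were low. Of 14 markers of differentiated smooth muscle 11 had a median under 1 CPM, with MYOCD, CASQ2, PLN and ITGA8 at 0 in every library, and the 3 at 10 CPM or more were SMTN, SYNM and MYLK. Their sum ran from 253 to 301 CPM in oxaliplatin libraries, 208 to 247 CPM in sorafenib libraries and 147 to 175 CPM in untreated libraries. MYLK is also in the list of light chain phosphorylation described above, and without it the sum ran from 89.0 to 143 CPM in oxaliplatin, 100.2 to 110 CPM in sorafenib and 87.5 to 104.5 CPM in untreated libraries, so that the groups overlapped. Of 14 striated muscle markers 11 had a median under 1 CPM and 7 were at 0 everywhere, with sums of 45.8 to 57.4 CPM in oxaliplatin, 38.9 to 56.7 CPM in sorafenib and 42.2 to 49.6 CPM in untreated libraries. TTN of that list had 21.2, 22.3 and 18.8 CPM in oxaliplatin libraries, 5.76, 12.6 and 7.61 CPM in sorafenib libraries and 5.045, 3.98 and 5.20 CPM in untreated libraries. It was called higher in oxaliplatin against untreated (2.13 ± 0.27, edgeR, adjusted p = 0.00145) and against sorafenib (1.26 ± 0.26, adjusted p = 0.016). TTN-AS1 overlaps 9.57% of the TTN exons on the other strand. It had up to 290 counts in a library, beside 72 to 463 counts of TTN, and what it contributed was not tested. In oxaliplatin against untreated TNNT1 (-0.52 ± 0.26) and MYH3 (-0.31 ± 0.21) were lower and not called. Of 14 fibroblast and pericyte markers 10 had a median under 1 CPM, and COL3A1, LUM and POSTN were at 0 in every library. The 2 at 10 CPM or more were COL1A1 and MCAM. The sum of the 14 ran from 109 to 152 CPM in oxaliplatin, 89.4 to 122 CPM in sorafenib and 112 to 176 CPM in untreated libraries. COL1A1, the collagen I gene of that list, had 15.2, 12.6 and 19.8 CPM in oxaliplatin libraries, 1.68, 1.93 and 1.18 CPM in sorafenib libraries and 6.04, 43.0 and 40.5 CPM in untreated libraries, so it was low in sorafenib and in untreated 1, as TAGLN and CALD1 were. PDGFRB of the same list had 2.44 to 2.68 CPM in sorafenib libraries and 5.22, 5.805 and 6.90 CPM in untreated libraries 1 to 3. There untreated 1 lay close to the other untreated libraries and above the sorafenib range. Of 10 endothelial and immune markers 9 had a median under 1 CPM, with sums of 20.5 to 57.7 CPM in oxaliplatin, 17.8 to 51.0 CPM in sorafenib and 25.5 to 48.1 CPM in untreated libraries. The part of other cells in these values was not tested, and in bulk RNA a change in the share of such cells and a change in RNA per cell cannot be told apart.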

How the data were processed

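Raw counts per gene, made by the authors with featureCounts against GRCh38 and deposited as whole numbers (per the submitters' processing notes, which give no version and also name DESeq2), were read from 9 tables of 60683 genes. Aligner, annotation release and strand setting are not given in the sources used here. The mRNA, from a TRIzol extraction, was fragmented and read on an Illumina NovaSeq machine, per the labels' protocols. Genes were filtered (filterByExpr, minimum count 10), scaled by TMM (factors 0.944 to 1.05) and fitted over all 9 libraries in R 4.3.3 with the robust quasi-likelihood model of edgeR 4.0.16, a coefficient for each group. The biological coefficient of variation was 0.224. All 3 contrasts had 2-sided tests with Benjamini-Hochberg adjustment over 16159 genes and a threshold of 0.05. The SE is the absolute log2 fold change over the square root of F.

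CPM per kb and exon overlaps used exon lengths from GENCODE release 29 (GRCh38). The contractile genes and all lists were chosen with earlier results of these data known. Other genes were named from among the 3 called genes with the smallest adjusted p of a list and contrast (mean of at least 1 CPM). Outside that rule FAS, PCSK7, ACTB, ACTG1, SRF, MRTFA, MRTFB, MYOCD, MYH11, TGFB1, TPM3 and COL1A1 are named, chosen after their values were seen. The markers TTN, TNNT1, MYH3, PDGFRB and MCAM were named in the same way. MYH10, VIL1, ACTA2-AS1 and TPM1-AS are also named outside that rule. Alternatives were DESeq2 1.42.0, RLE factors, library size only, no filter, fits of 2 groups, a filter on mean CPM (at least 1), a block for the replicate number, leaving out genes that overlap another gene, leaving out each library in turn, and, added after seeing the data, a loess correction (span 0.5) for GC content and transcript length. In a test on simulated data of the oxaliplatin contrast over 16159 genes, 5, 23, 41 and 40 of 50 genes changed by 1.5, 2, 3 and 4-fold were called, and 8 of 117 calls were false. No other genes were changed there, whereas 31.7% of all genes were called in the measured contrast. The shares called in the simulation therefore do not carry over to the measured data.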

Additional observations from a re-analysis of the deposited data

How the results depend on the processing

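Over the alternatives the 9 fitted contractile genes gave 468 values in 3 contrasts. Of these 424 kept their direction and their side of the threshold, 19 lost a call, 9 gained one and 16 changed sign. Of the 16, MYH9 in oxaliplatin against untreated was called, at -0.31 with the correction for GC content and length, and 15 were not called before or after. With that correction TPM1 and MYH9 in sorafenib against untreated were -0.04 and -0.07, and TPM2 between the drugs 0.09. With library size only TPM2 and MYH9 between the drugs were 0.04 and 0.03. With 1 library left out TPM1 ran from -0.43 to 0.13 in oxaliplatin and from -0.13 to 0.44 in sorafenib, and MYH9 from -0.05 to 0.12 in oxaliplatin, all against untreated. Between the drugs TPM2 then ran from -0.30 to 0.20, TPM4 from -0.14 to 0.49 and MYH9 from -0.15 to 0.01. The values where calls were lost stand in the report. Calls were gained for MYL9 in oxaliplatin against untreated with library size only and with the GC and length correction (0.72 each), for TPM2 there without oxaliplatin 3 (-0.80), for CALD1 in sorafenib against untreated without untreated 1 (-0.81) and for CNN1 between the drugs in 5 alternatives (4.27 to 4.53). The mean MYH9 level in untreated libraries was 2074 CPM by library size only, against 2152 CPM with TMM. Of 1782 values of named genes of the wider lists 1585 kept their direction and their side of the threshold, 131 lost a call, 42 gained one and 24 changed sign, none of them called before or after. In oxaliplatin against untreated SYNPO was -0.12 with the correction and MYH10 0.08 with library size only, and with 1 library left out TGFBR3 ran from -0.39 to 0.14 and MYH10 from -0.09 to 0.01. In sorafenib against untreated DIAPH3 then ran from -0.16 to 0.01 and TPM3 from -0.72 to 0.03. Between the drugs SCAI and MYH10 were -0.02 and -0.17 with the correction, SMAD3 0.05 with library size only, and ACTG1 -0.01 without overlapping genes and just below 0, at 0.00 when rounded, with no filter on low counts. With 1 library left out SMAD3 ran from -0.10 to 0.03, SRF from -0.03 to 0.37, MRTFA from -0.09 to 0.20, ACTB from -0.07 to 0.26, ACTG1 from -0.10 to 0.16, MYH10 from -0.02 to 0.08 and TPM3 from -0.49 to 0.16.

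Counts of called genes moved more. In oxaliplatin against untreated 5123 genes were called, 2809 with overlapping genes left out, which leaves 8214 genes, and 2913 to 5403 with 1 library left out. The wider lists there had 33 calls, 11 and 22 to 38. In sorafenib against untreated there were 775 calls, 1826 with DESeq2, 311 with 2 groups only, 184 with the replicate block, 1166 with the GC and length correction and 113 to 1743 with 1 library left out. The wider lists there had 8 calls, 20 with DESeq2, 2 with the block, 5 without overlapping genes, 18 with the correction and 1 to 20 with 1 library left out. Between the drugs there were 1659 calls, 809 with the block, 1006 without overlapping genes and 572 to 1949 with 1 library left out, and in the wider lists 13, 8 with the block, 8 without overlapping genes, 21 with the correction and 7 to 18. The cause was not tested.

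Library size only moved the median log2 fold change in oxaliplatin against untreated to 0.13, and the split of calls to 3395 higher and 1794 lower, against 2619 and 2504 with TMM. With the GC and length correction the split was 1690 and 3195. Between the drugs the splits were 1072 and 599 with library size only and 948 and 1402 with the correction, against 840 and 819, and in sorafenib against untreated 478 and 688 with the correction, against 456 and 319. In the wider lists the split in oxaliplatin against untreated was 25 and 12 with library size only and 8 and 30 with the correction, against 16 and 17.

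Same-numbered libraries of different groups did not deviate together (r of their deviations from -0.11 to 0.03 over 9 pairs, and 0 of 9 libraries correlated best with their own number). No pairing by replicate number was thus seen in the values. Deviations from means of 3 libraries cannot exclude that samples were paired by design. With the replicate block 3773, 184 and 809 genes were called in the 3 contrasts. Depth limits CNN1 and ACTG2, which lie near the floor of 3 counts.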

Other observations

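Large differences within a group, as in TPM4, were not common. TPM4 differed by 2.17-fold between the highest and lowest oxaliplatin libraries, 2.74-fold in sorafenib and 2.92-fold in untreated. Among 9600 genes that averaged 10 CPM or more, 1240 (12.9%) differed at least 2-fold within some group and 117 (1.22%) within all 3. This was looked at after the TPM4 values had been seen.

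Over the 9 libraries GMCL1 (0.962) and CHD2 (0.939) were among the genes most like TPM4, by Pearson's r of log2(CPM + 1) over 10134 genes. The most opposite were NFKB2 (-0.977), SPSB3 (-0.960) and TPM3 (-0.959). CHD2, the gene of a chromatin remodeller, had 136.5, 130.4 and 79.1 CPM in oxaliplatin libraries, 60.7, 149 and 102.5 CPM in sorafenib libraries and 123, 40.8 and 45.1 CPM in untreated libraries, with the same 4 libraries low as in TPM4. The points share these libraries and no test was made.

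VIL1, the gene of the microvillar actin bundler villin, had at most 0.107 CPM in sorafenib libraries, against 0.176, 6.91 and 7.27 CPM in untreated libraries 1 to 3. As for TAGLN and COL1A1, untreated 1 stood near the sorafenib values.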
